A study of Bos indicus with 6 samples.

Results

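Transcripts of the endoplasmic reticulum (ER) folding and secretory machinery were examined in the isthmus, the lower segment of the bovine oviduct. The genes were taken from a fixed list of 38 names covering chaperones, disulfide isomerases, stress sensors, degradation factors and the translocation apparatus. A gene was kept when the symbol of its row equaled a listed name, and 36 of the 38 names were found among 24616 rows. HSPA5, which encodes the master chaperone BiP, and PDIA4 had no row under those symbols. Rows under the older names GRP78 and ERP70 were taken up after the data had been seen, are described beside the members, and are not counted among the 36.

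Secreted and membrane proteins enter the ER through the SEC61 channel, lose their signal peptide, and fold with the help of BiP, the lectins calnexin and calreticulin and the protein disulfide isomerases. When unfolded protein builds up, the sensors IRE1 (gene ERN1), PERK (EIF2AK3) and ATF6 raise folding capacity through the transcription factors XBP1 and ATF4, and protein that cannot be folded is returned to the cytosol for degradation. XBP1 acts after its messenger is spliced by IRE1, and ATF4 after preferential translation, steps that a count of reads per gene does not show. The oviduct epithelium secretes glycoproteins such as OVGP1 into the fluid that bathes the early embryo, which places a load on this machinery.

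All animals were multiparous Nelore cows. All were pre-synchronized with a GnRH agonist (1 ug of buserelin) and then an analog of prostaglandin F2 alpha (PGF, 0.5 mg of cloprostenol). On day -10 each received a progesterone device of 1 g together with 2 mg of estradiol benzoate. PGF was given when the device came out and again 6 h later, and a GnRH agonist was given on day 0 to induce ovulation. The LF/LCL group (large follicle, large corpus luteum) was given an additional PGF injection on day -10 and had the device withdrawn 42 h before GnRH. The SF/SCL group (small follicle, small corpus luteum) lacked that injection and had the device withdrawn 30 h before GnRH. Tissue of the whole oviduct wall, on the side that had ovulated, was collected on day 4, with 1 RNA-seq library per cow. The 3 LF/LCL cows (617, 79 and 527) ranked at the top of their group and the 3 SF/SCL cows (856, 489215 and 97) at the bottom of theirs, so they are extremes and not random members of the groups. P-values set the difference between the groups against the spread between cows within them. Since the cows were chosen as extremes, these p-values do not carry over to cows in general. In whole tissue, fewer cells of a type and less RNA per cell cannot be told apart.

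The libraries held 23899117 to 34193164 counted reads. Abundance is given as the normalized count, the reads of a gene divided by the size factor of the library. The library of cow 489215 stood apart from the other 5. In it 36.7% of the 15387 genes tested lay above every other cow and 35.7% lay below every other cow. By the read numbers that the paper lists, uniquely mapped reads were a smaller share of mapped reads in this library than in the other 5. Whether that bears on its values was not tested. OVGP1, the main secretory product of the oviduct, had normalized counts of 287, 1782 and 1950 in the LF/LCL cows and of 271794, 730 and 325158 in SF/SCL cows 856, 489215 and 97. OVGP1 was not among the genes tested, because its SD over the 6 cows exceeded its mean. For its isthmus RNA-seq the paper lists a much smaller group difference, and its qPCR in more cows found no group effect. In the counts used here, cow 489215 was on the LF/LCL side for this gene. The comparison of the groups was therefore made with and without cow 489215.

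No ER gene differed between the groups past the threshold. With limma on log2(normalized count + 1), 0 of the 36 members passed a Benjamini-Hochberg adjusted threshold of 0.05, and the lowest adjusted p-value was 0.484, for HSPA13. Of all genes tested, 0% passed this threshold. Before adjustment, 1 member had a p-value under 0.05 and was lower in SF/SCL, against 4.48% of all genes, and 0 members were higher, against 4.19%. The quasi-likelihood test of edgeR on the recovered reads also called 0 members, with 1 at an unadjusted p-value under 0.05. DESeq2 called 0 members, with 2 at an unadjusted p-value under 0.05, while it called 2.76% of all genes. Log2 fold changes of SF/SCL over LF/LCL ran from -0.71 for SEL1L to 0.49 for SSR3, with 15 members lower and 21 higher. Their median was 0.04, and that of all genes tested was -0.02. The 95% interval of the log2 fold change stayed within 1 in either direction for 17 of the 36 members, and for the other members a difference of that size lay inside the interval.

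The spread lay mostly in 1 cow. The highest cow exceeded the lowest by a median of 2.21-fold over the 36 members, and by 1.37-fold once cow 489215 was left out. The same medians over all genes tested were 2.34-fold and 1.57-fold. Members differed widely in this respect, from 1.11-fold for EIF2AK3 to 67.7-fold for ERN1.

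**Figure D1:**
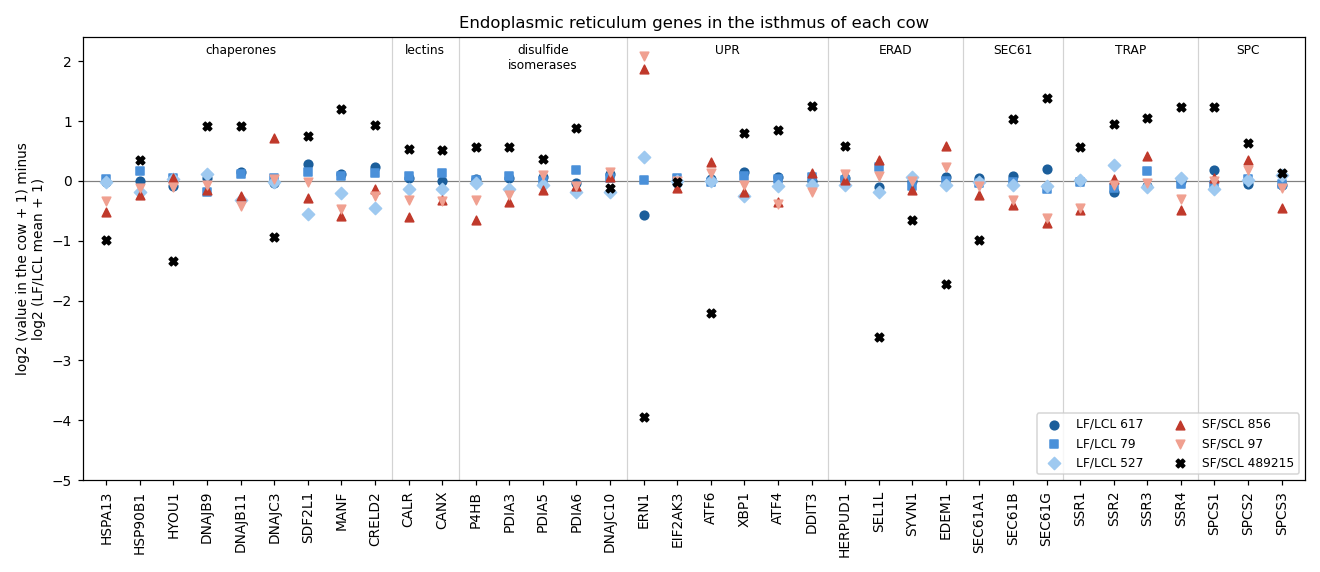
Each ER gene in each cow, as the log2 of its normalized count + 1 minus the log2 of the LF/LCL mean + 1 (vertical axis), with genes grouped by role along the horizontal axis. Blue symbols are LF/LCL cows, red symbols are SF/SCL cows 856 and 97, and black crosses are SF/SCL cow 489215, which was the highest cow for 25 members and the lowest for 9.

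In the group of BiP, its cofactors and related chaperones, HSPA13 was the member with the smallest p-value. HSPA13 is a microsomal relative of the HSP70 chaperones. Its normalized counts were 2138, 2196 and 2139 in LF/LCL cows 617, 79 and 527 and 1496, 1088 and 1716 in SF/SCL cows 856, 489215 and 97. The SF/SCL cows were all below the LF/LCL cows, which were nearly equal, and the groups did not overlap. The log2 fold change was -0.62 ± 0.21 (SE, n = 3 cows per group, limma unadjusted p = 0.0247, adjusted p = 0.484), with adjusted p-values of 0.501 in edgeR and 0.262 in DESeq2. This call was lost after adjustment over all genes, and 8.6% of all genes had groups that did not overlap in this direction.

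HSP90B1, the ER chaperone GRP94, stood at 21529, 24261 and 18929 in the LF/LCL cows and at 18260, 27579 and 19957 in SF/SCL cows 856, 489215 and 97. Cow 489215 was above all others and the remaining cows mixed. The log2 fold change was 0.01 ± 0.24 (limma adjusted p = 0.995). GRP78, the row with the older name of BiP, showed the same arrangement, with 17355, 19100 and 13947 in LF/LCL and 12399, 23135 and 14531 in SF/SCL (log2 fold change -0.05 ± 0.29, limma adjusted p = 0.974).

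For the cofactors, cow 489215 was at the top for some members and at the bottom for others. MANF, a secreted protein that binds BiP, ranged from 2188 to 2718 in LF/LCL and was 1678, 5770 and 1825 in SF/SCL cows 856, 489215 and 97. DNAJB9, DNAJB11, SDF2L1 and CRELD2 were likewise highest in cow 489215, at 1.78-fold to 2.09-fold the mean of the other cows. DNAJB9 and DNAJB11 are J-domain partners of BiP, SDF2L1 is a partner of DNAJB11, and CRELD2 is a stress-induced ER protein. HYOU1, a nucleotide exchange factor of BiP, went the other way, with 2218 to 2453 in 5 cows and 943 in cow 489215. DNAJC3, a J-domain protein that restrains PERK, was lowest in cow 489215 at 2731 and highest in cow 856 at 8633, while the other 4 cows held 5134 to 5426. The ratio of DNAJB11 to DNAJC3 within a library was 0.120 to 0.266 in 5 cows and 0.852 in cow 489215. Gene length cancels in a comparison of such a ratio between cows only if length acts alike in every library, which was not tested. The ratio itself is no measure of stoichiometry.

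Calreticulin (CALR) and calnexin (CANX), the lectins that hold glycoproteins during folding, shared 1 pattern. CALR was 21691, 22310 and 19011 in LF/LCL and 13773, 30383 and 16848 in SF/SCL cows 856, 489215 and 97. CANX was 21742, 23927 and 19800 in LF/LCL and 17515, 31186 and 17359 in SF/SCL. For both, cows 856 and 97 lay below every LF/LCL cow and cow 489215 above every one. With the SF/SCL cows on both sides, the log2 fold changes were -0.13 ± 0.32 for CALR and -0.04 ± 0.28 for CANX.

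P4HB, the founding protein disulfide isomerase and a subunit of collagen prolyl 4-hydroxylase, and PDIA3, which works with the lectins, also had cows 856 and 97 below, and cow 489215 above, every LF/LCL cow. P4HB was 23670, 23365 and 22607 in LF/LCL and 14753, 34259 and 18708 in SF/SCL. PDIA3 was 26024, 26686 and 22985 in LF/LCL and 19778, 37346 and 21420 in SF/SCL. PDIA6 and PDIA5 were also highest in cow 489215, at 13259 and 739. For PDIA6 cows 856 and 97 lay within the LF/LCL range, and for PDIA5 they lay on either side of it. DNAJC10, a reductase that prepares protein for degradation, ranged only from 993 to 1260 over all 6 cows, with cow 489215 inside that range. ERP70, the row with the older name of PDIA4, was 8860, 10679 and 7613 in LF/LCL and 6207, 10015 and 6088 in SF/SCL (log2 fold change -0.31 ± 0.26, limma adjusted p = 0.836), so here cow 489215 lay within the LF/LCL range.

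The 3 stress sensors behaved differently from one another. ERN1 was 272, 408 and 531 in LF/LCL and 1478, 25.3 and 1713 in SF/SCL cows 856, 489215 and 97. Cows 856 and 97 were above, and cow 489215 below, all LF/LCL cows, which gave a log2 fold change of 0.06 ± 1.58 with a 95% interval from -3.73 to 3.84 (limma adjusted p = 0.995). The count models, which average on the linear scale, gave 1.40 in edgeR (adjusted p = 0.841) and 1.41 in DESeq2 (adjusted p = 0.705). The value in cow 489215 rested on 19 reads, for which counting error alone allows 11.4 to 29.7 reads (95% exact Poisson interval), or 15.2 to 39.5 normalized counts. The next fewest reads of any member in any library were 181.

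EIF2AK3 was 2004, 2119 and 2047 in LF/LCL and 1904, 2036 and 2053 in SF/SCL. It was the steadiest of the 36 members, cow 489215 lay within the range of the others, and the log2 fold change was -0.04 ± 0.15 with a 95% interval from -0.40 to 0.32. ATF6 was 1414, 1357 and 1373 in LF/LCL and 1721, 298 and 1508 in SF/SCL cows 856, 489215 and 97. Cows 856 and 97 were a little above the LF/LCL cows and cow 489215 far below all of them (log2 fold change -0.59 ± 0.66, limma adjusted p = 0.872).

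The transcription factors of the response were all highest in cow 489215. XBP1 was 9589, 9195 and 7267 in LF/LCL and 7641, 15134 and 8324 in SF/SCL (log2 fold change 0.20 ± 0.30, limma adjusted p = 0.903), with cows 856 and 97 within the LF/LCL range. ATF4 was 12026, 11751 and 10799 in LF/LCL and 8987, 20861 and 8836 in SF/SCL (0.04 ± 0.36, adjusted p = 0.981), with cows 856 and 97 below every LF/LCL cow. DDIT3, which encodes the pro-apoptotic factor CHOP, was 422, 441 and 401 in LF/LCL and 462, 999 and 368 in SF/SCL (0.40 ± 0.39, adjusted p = 0.859). In 5 of the cows DDIT3 stayed within a 1.25-fold range, and cow 489215 stood at 2.39-fold their mean. Within a library, the ratio of ATF4 to ATF6 was 7.87 to 8.66 in LF/LCL, 5.22 and 5.86 in cows 856 and 97, and 70.0 in cow 489215.

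**Figure D2:**
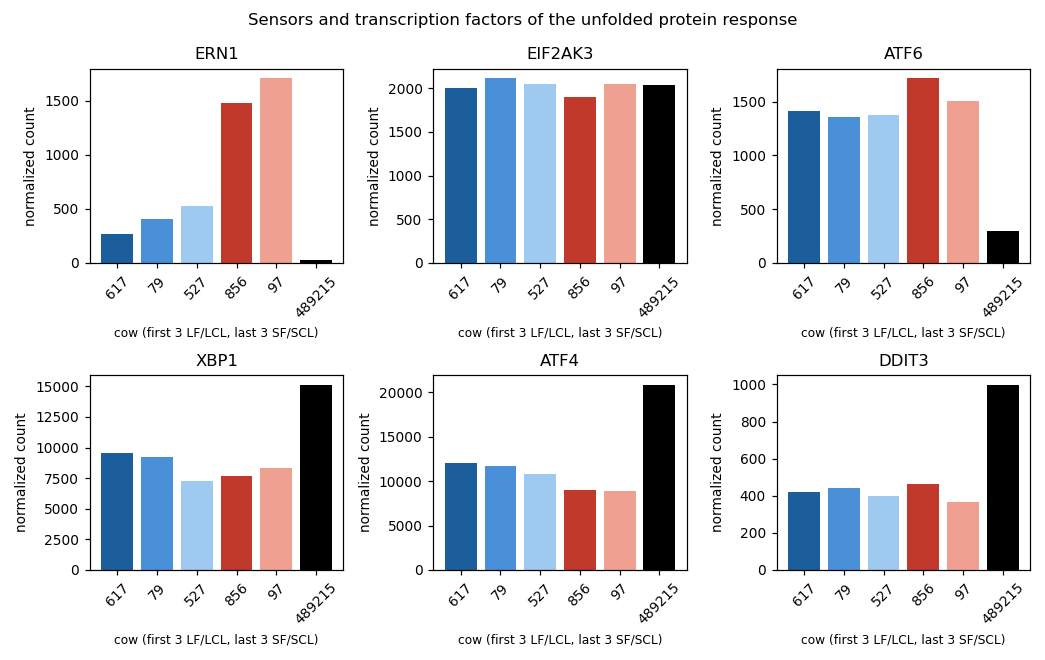
Normalized counts (vertical axes, each starting at 0) of the sensors ERN1, EIF2AK3 and ATF6 and the factors XBP1, ATF4 and DDIT3 in each cow, 1 bar per library with no error bar. Cow 489215 (black) was at 25.3 for ERN1 and 298 for ATF6, the lowest of the 6, but the highest for XBP1, ATF4 and DDIT3, while EIF2AK3 stayed between 1904 and 2119.

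ER-associated degradation was the only role in which most members were lowest in cow 489215. HERPUD1, a scaffold of the degradation complex, was the exception, with 3728, 3620 and 3413 in LF/LCL and 3619, 5363 and 3903 in SF/SCL (log2 fold change 0.24 ± 0.20, limma adjusted p = 0.834). SEL1L, the adaptor of the ubiquitin ligase, was 1374, 1730 and 1296 in LF/LCL and 1860, 241 and 1551 in SF/SCL cows 856, 489215 and 97. EDEM1, which trims mannose from misfolded glycoproteins, was 2326, 2210 and 2108 in LF/LCL and 3325, 674 and 2602 in SF/SCL. For EDEM1 cows 856 and 97 were above all LF/LCL cows and cow 489215 below them, while for SEL1L cow 97 was within the LF/LCL range, cow 856 just above it and cow 489215 far below it. SYVN1, the ubiquitin ligase itself, held 984 to 1156 in 5 cows and 702 in cow 489215. The summed normalized count of these 4 genes was 7974 to 8600 in LF/LCL, 9788 and 9154 in cows 856 and 97, and 6979 in cow 489215.

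The subunits of the SEC61 channel differed in direction in cow 489215. SEC61A1, the pore, was 3709, 3504 and 3508 in LF/LCL and 3032, 1811 and 3349 in SF/SCL cows 856, 489215 and 97. All SF/SCL cows were below all LF/LCL cows (log2 fold change -0.44 ± 0.26, limma unadjusted p = 0.138, adjusted p = 0.734), as for 8.6% of all genes. SEC61B was 4557, 4259 and 4104 in LF/LCL and 3256, 8866 and 3443 in SF/SCL. SEC61G was 3254, 2583 and 2675 in LF/LCL and 1737, 7384 and 1851 in SF/SCL. The small subunits SEC61B and SEC61G thus showed cows 856 and 97 below, and cow 489215 above, every LF/LCL cow. The ratio of SEC61G to SEC61A1 within a library was 0.737 to 0.877 in LF/LCL, 0.573 and 0.553 in cows 856 and 97, and 4.08 in cow 489215, and that of SEC61B to SEC61A1 was 1.17 to 1.23, 1.07 and 1.03, and 4.90.

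The translocon-associated protein (TRAP) complex assists the entry of some signal peptides, and its subunits SSR1 to SSR4 were all highest in cow 489215. SSR1 was 12445, 12212 and 12598 in LF/LCL and 8876, 18441 and 9105 in SF/SCL. SSR4 was 6125, 5878 and 6357 in LF/LCL and 4358, 14388 and 4976 in SF/SCL. For both, cows 856 and 97 were below every LF/LCL cow. SSR2 (8728 to 11886 in LF/LCL, 10159, 19078 and 9445 in SF/SCL) and SSR3 (4032 to 4809 in LF/LCL, 5774, 8927 and 4202 in SF/SCL) did not separate the cows that way.

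The signal peptidase complex removes signal peptides, and its subunit SPCS2 was the 1 member with higher values in every SF/SCL cow. SPCS2 was 4028, 4280 and 4208 in LF/LCL and 5331, 6440 and 4746 in SF/SCL cows 856, 489215 and 97. The groups did not overlap, as for 9.51% of all genes in this direction, and the log2 fold change was 0.39 ± 0.18 (limma unadjusted p = 0.0662, adjusted p = 0.621). SPCS1 was 2624 to 3250 in the other 5 cows and 6770 in cow 489215. SPCS3 ranged from 379 to 567 over the 6 cows, with cow 856 lowest and cow 489215 highest.

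**Figure D3:**
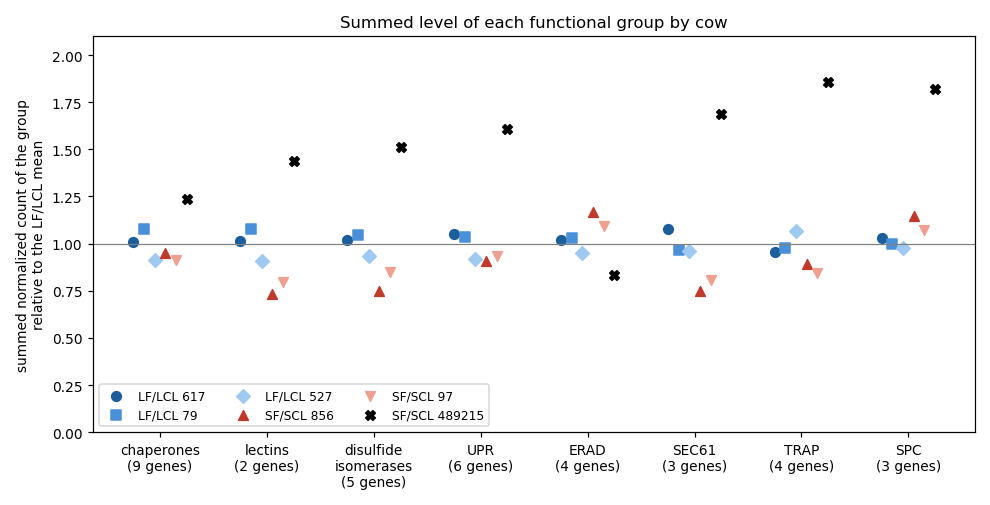
Summed normalized count of the members of each role in each cow, divided by the LF/LCL mean of that sum (vertical axis, starting at 0; horizontal axis, role and number of genes found), 1 symbol per cow. Cow 489215 (black crosses) was above all other cows in every role except ER-associated degradation, where it was the lowest.

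Summed over the 36 members, the ER genes took 0.807% to 0.865% of the counted reads in LF/LCL, 0.731% and 0.756% in cows 856 and 97, and 0.991% in cow 489215. The sums do not show the members that were low in cow 489215, since the abundant chaperones and isomerases dominate them.

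With cow 489215 left out, only limma was run, not edgeR or DESeq2. Cows 856 and 97 were compared with the 3 LF/LCL cows, and 10 members passed the adjusted threshold. Of these, 9 were lower in SF/SCL, against 7.92% of all genes, and 1, ERN1, was higher, against 10.3% of all genes. The lower members were HSPA13 and MANF in the group of BiP and related chaperones, CALR among the lectins and P4HB among the isomerases. The rest were the transcription factor ATF4, SEC61B and SEC61G of the channel, and SSR1 and SSR4 of the TRAP complex. In all, 26 members were lower and 10 higher, with a median log2 fold change of -0.11 (-0.00092 for all genes tested). Leaving out any other cow gave 0 members past the threshold, so each of these calls rested on leaving out cow 489215, which was singled out by its values.

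The sizes were modest for the lower members. SEC61G had a log2 fold change of -0.65 ± 0.12 (SE, n = 3 and 2 cows, limma adjusted p = 0.0175), and its mean normalized count was 1.58-fold higher in LF/LCL than in cows 856 and 97. SSR1 had -0.47 ± 0.08 (adjusted p = 0.0124), and MANF -0.52 ± 0.12 (adjusted p = 0.0332). P4HB (-0.48), CALR (-0.46), HSPA13 (-0.43), SSR4 (-0.39), ATF4 (-0.37) and SEC61B (-0.36) had adjusted p-values from 0.0287 to 0.0487. ERN1 moved by more, at 2.03 ± 0.27 (adjusted p = 0.00650), a 3.95-fold higher mean in cows 856 and 97. Of the rows with older names, ERP70 was lower (-0.54 ± 0.15, adjusted p = 0.0481), and GRP78 had -0.31 ± 0.15 (adjusted p = 0.205). The 95% intervals were then within 1 log2 unit for 35 of the 36 members, the exception being ERN1.

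Counted without a test, 13 members had cows 856 and 97 below all LF/LCL cows, against 24.9% of all genes, and 4 had them above, against 27.1%. The former were the 9 called lower together with CANX, PDIA3, SEC61A1 and SPCS3, and the latter were ERN1, ATF6, EDEM1 and SPCS2. XBP1, DDIT3, HERPUD1 and EIF2AK3, by contrast, had log2 fold changes from -0.11 to 0.07 in these 5 cows, none of them past the threshold.

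**Figure D4:**
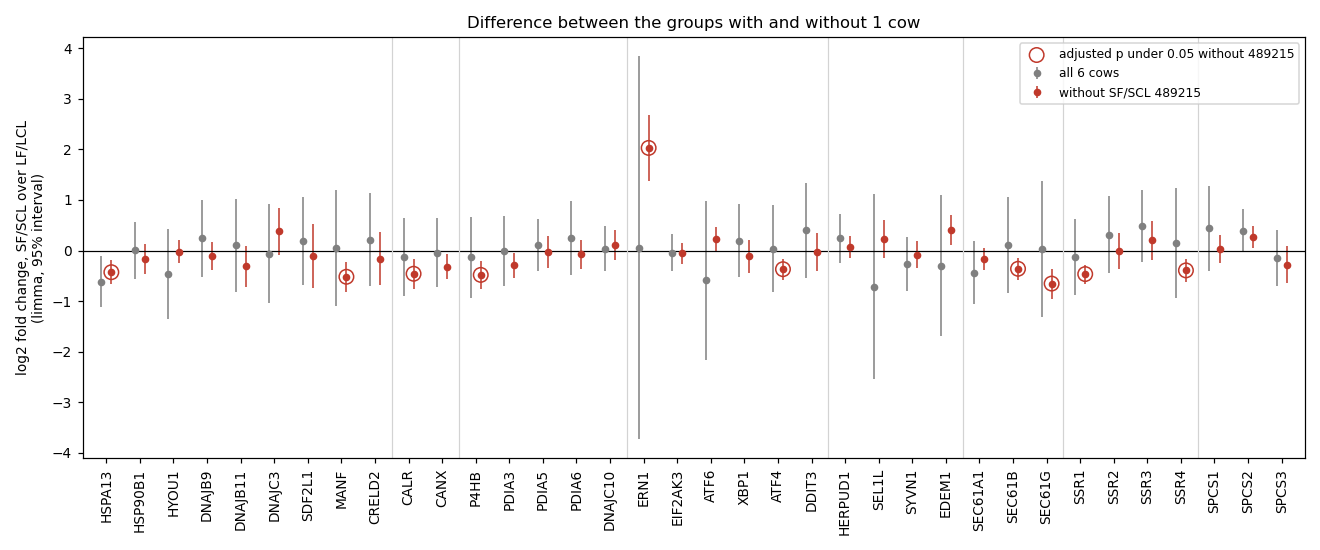
Log2 fold change of SF/SCL over LF/LCL for each ER gene with its 95% interval from limma (vertical axis), over all 6 cows (gray) and without cow 489215 (red), with genes in the order of their roles. Circles mark the 10 members with an adjusted p-value under 0.05 without cow 489215, of which ERN1 at 2.03 was the only one above 0.

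Cow 489215 departed from the other cows in both directions within this machinery. It was the highest of the 6 cows for 25 of the 36 members and the lowest for 9, with DNAJC10 and EIF2AK3 between. These counts stand beside the 36.7% and 35.7% of all genes given above. Its log2 value lay a median of 0.70 above the mean of the other 5 cows over the members, compared with 0.02 over all genes. A distance of more than 1 was reached by 15 members, against 34.5% of all genes. The largest distances upward were those of SEC61G (1.65), MANF (1.41), SSR4 (1.39), DDIT3 (1.26), SPCS1 (1.23) and SEC61B (1.19), and those downward were ERN1 (-4.70), SEL1L (-2.68), ATF6 (-2.30), EDEM1 (-1.88), HYOU1 (-1.32) and DNAJC3 (-1.09). For comparison, the members' medians in the other 5 cows ran from -0.25 in cow 856 to 0.07 in cow 79.

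**Figure D5:**
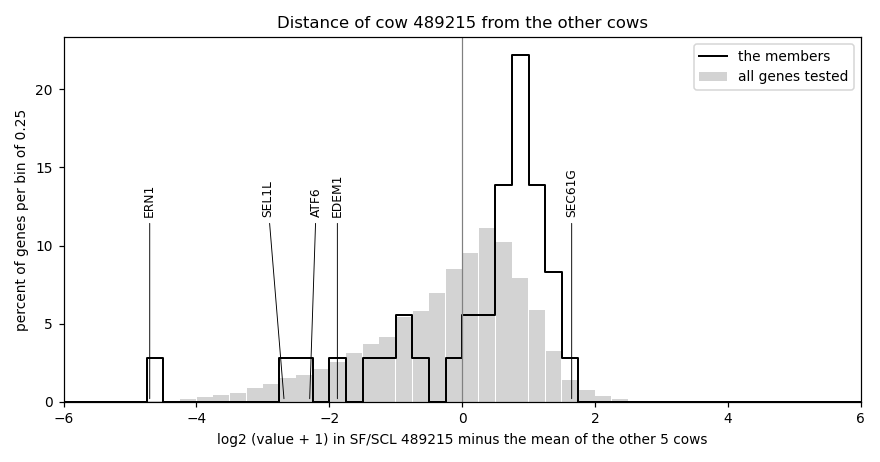
Distribution of the distance between cow 489215 and the mean of the other 5 cows (horizontal axis, log2 of normalized count + 1) as the percent of genes in each bin of 0.25 (vertical axis), for the ER genes (black line) and all genes tested (gray). The ER genes peaked to the right of 0, with a median of 0.70, and had a few members far to the left, of which ERN1 at -4.70 was the farthest.

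Beyond the members, 119 further genes of the pathway were listed, and 117 were found and tested. The lists covered other stress signaling and targets, degradation, oxidative folding and prolyl isomerases, N-glycosylation, targeting and translocation, and COPII and COPI transport. None of the 117 passed the adjusted threshold in limma, and the median log2 fold change was 0.00. Before adjustment, 6 had a p-value under 0.05 and were lower in SF/SCL and 3 were higher, where 4.48% and 4.19% of all genes did so, shares near those of the list. Without cow 489215, 16 of the 117 were called lower and 13 higher, against 7.92% and 10.3% of all genes, with a median of -0.08. The 9 genes are described for their values, as they were picked by that p-value.

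The largest of these differences were in prolyl isomerases and a sulfhydryl oxidase. FKBP10, a prolyl isomerase of collagen folding, was 1291, 1298 and 1580 in LF/LCL and 567, 736 and 707 in SF/SCL cows 856, 489215 and 97 (log2 fold change -1.05 ± 0.20, limma adjusted p = 0.367). FKBP9, a related ER isomerase, was 8584, 9077 and 11272 in LF/LCL and 5262, 5500 and 4546 in SF/SCL (-0.91 ± 0.19, adjusted p = 0.367). QSOX1, which forms disulfide bonds in secreted proteins, was 4623, 4725 and 4455 in LF/LCL and 10579, 6012 and 11058 in SF/SCL (0.95 ± 0.27, adjusted p = 0.412). For these 3 genes cow 489215 was on the same side of the LF/LCL cows as cows 856 and 97. They stand in gene tables that the study drew up from these same cows, so their direction is not independent evidence.

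TUSC3, an oxidoreductase subunit of the oligosaccharyltransferase, was 1743, 1836 and 1874 in LF/LCL and 3253, 3103 and 2924 in SF/SCL (log2 fold change 0.77 ± 0.15, limma adjusted p = 0.367), with the 3 SF/SCL cows close together. LMAN1, the cargo receptor ERGIC-53, was 2388, 2481 and 2328 in LF/LCL and 1500, 968 and 1614 in SF/SCL (-0.85 ± 0.23, adjusted p = 0.410). The other genes were UGGT2 (-0.67), a relative of the glycoprotein folding checkpoint enzyme, CREB3L1 (-0.55), a membrane-bound transcription factor of the ATF6 type, UBE2G2 (-0.49), a ubiquitin-conjugating enzyme of ER degradation, and SEC11A (0.58), the catalytic subunit of the signal peptidase. DESeq2 called FKBP10 (adjusted p = 0.000535), FKBP9 (0.00245), QSOX1 (0.0467) and TUSC3 (0.000216) among these 9, while it called 2.76% of all genes. Since limma had picked the 9 genes from the same libraries, these calls are not separate evidence.

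Markers of cell types in the oviduct wall also differed between the cows. Summed over 9 of 10 smooth muscle markers found, normalized counts were 802015 to 924578 in LF/LCL, 366997 and 433086 in cows 856 and 97, and 1270440 in cow 489215. Over all 10 fibroblast markers they were 411588 to 524610, then 206053 and 216141, and 307763. Without cow 489215, limma called 8 of 9 muscle markers and 9 of 10 fibroblast markers lower in SF/SCL. Both sums were thus lower in cows 856 and 97, as the 9 ER genes were. The muscle sum was highest in cow 489215, but only 5 of the 9 muscle markers were highest there and 1 was lowest. The fibroblast sum of cow 489215 lay below that of every LF/LCL cow.

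Ciliated cell markers went the other way, with 11 of 13 called higher in SF/SCL without cow 489215, against 10.3% of all genes. Their sum over the 14 listed, of which PIFO was at 0 in all libraries, was 44766 to 57198 in LF/LCL, 84518 and 90177 in cows 856 and 97, and 51223 in cow 489215. The sum of 11 of 12 secretory and general epithelial markers, mostly OVGP1 in cows 856 and 97, was 31028 to 45837, then 320995 and 383055, and 72985. Without OVGP1 the other 10 summed to 29078 to 45551 in LF/LCL, 49201 and 57897 in cows 856 and 97, and 72256 in cow 489215, the highest. Cow 489215 was the highest of the 6 for 7 of the 11, and 4 of 10 tested were called higher in SF/SCL without it. With all 6 cows limma called 0 epithelial or ciliated markers. Before adjustment, 6 of 10 epithelial and 3 of 13 ciliated markers had a p-value under 0.05 and were higher in SF/SCL, against 4.19% of all genes. The 6 mesothelial markers summed to 2520 to 3388, then 26272 and 26747, and 3499, a sum made up mostly of MSLN and WT1. Of the 3 tested without cow 489215, WT1 was called higher and LRRN4 and BNC1 lower in SF/SCL. Endothelial markers (8 of 9 found) summed to 14202 to 18270, then 11650 and 12293, and 17776. Leukocyte markers (10 found) and plasma cell markers (6 of 7) overlapped between the groups, at 4063 to 6399 and 7287 to 21650 over the 6 cows. The 4 erythrocyte markers found summed to at most 6.66 in any library. The part of these cell types in the ER gene values was not tested. ERN1 was high and 9 ER genes were low in the same cows, 856 and 97, that had the highest OVGP1 and ciliated cell marker sum and the lowest muscle and fibroblast sums, and with 2 such cows these differences cannot be told apart.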

How the data were processed

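One isthmus RNA-seq library from each of 6 cows was used, grouped by the sample titles. The authors filtered paired-end poly(A) reads, aligned them to the masked UMD3.1 assembly with TopHat 2.0.8 and Bowtie2 2.1.0, and counted uniquely mapped reads per gene with HTSeq 0.5.4p2. The strand setting is not given in the sources used here. Reads shared with near-identical copies of a gene were thus left out. The deposited signal values are these counts divided by DESeq size factors, for 24616 rows, of which 5476 were at 0 in every library. Whole reads were recovered for 100% of values (tolerance 0.01 on the scale of the deposited values), with a median of 27155932 per library. Intervals on them cover counting error only.

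The test took the 15387 genes whose mean exceeded both 5 and the SD of the 6 libraries, and was run with limma 3.58.1 (trend, robust) on log2(value + 1) in R 4.3.3, with Benjamini-Hochberg adjustment over all genes, so fold changes are on that scale. Alternatives were edgeR 4.0.16 (TMM) and DESeq2 1.42.0 on recovered reads, other filters, pseudocounts of 0.5 and 5, library size scaling, a variance prior that was not robust, and leaving out each cow. The scripts were tested on simulated data with 200 changed genes. With all 6 cows limma recovered 0% of 2-fold, 32.8% of 4-fold and 53.0% of 8-fold changes, with 0% false calls. Without cow 489215 it recovered 52.2%, 79.1% and 57.6%, and 7.35% of its calls were false. Whether these rates hold where a library stands apart, or where a cow is left out because of its values, was not tested. The members, roles, pathway lists and marker lists were chosen with earlier results of these data known. Given in full were the members at an unadjusted p-value under 0.05, those whose groups did not overlap and the heads of the stress response. Of the other pathway genes at an unadjusted p-value under 0.05, FKBP10, FKBP9, QSOX1, TUSC3 and LMAN1 are given with their values in every cow. For UGGT2, CREB3L1, UBE2G2 and SEC11A only the log2 fold change is given. Values of further members are given by the roles.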

Additional observations from a re-analysis of the deposited data

How the results depend on the processing

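The count of members past the adjusted threshold was 0 in every setting run except without cow 489215, and ranged from 0 to 10 over the leave-outs. The count at an unadjusted p-value under 0.05 was 2 in DESeq2, 0 under library size scaling and 0 to 14 over the leave-outs. The count of members whose groups did not overlap was 5 under library size scaling and 4 to 17 over the leave-outs. In each of these the highest count was that without cow 489215. The members' median log2 fold change ran from -0.11 without cow 489215 to 0.24 without cow 856. Library size scaling moved the median of all genes from -0.02 to -0.10 and the share of genes lower in SF/SCL from 51.4% to 60.5%, and made 21 members lower and 15 higher. Counting GRP78 and ERP70 as members, an alternative added after seeing the data, left the counts at 0, 1 and 3. The filters, pseudocounts and variance prior turned no direction. ERN1 was not tested without cow 856 or cow 97, because its SD then exceeded its mean, which left 35 members.

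Log2 fold changes near 0 turned with the scaling or the model. Under library size scaling they became -0.082 for HSP90B1, -0.036 for MANF, -0.051 for DNAJC10, -0.030 for ERN1, -0.050 for ATF4 and -0.064 for SEC61G. In edgeR they became -0.0072 for HSP90B1, 0.070 for DNAJC3 and 0.020 for PDIA3, and in DESeq2 0.093 for DNAJC3, 0.011 for CANX and 0.052 for PDIA3. The cause was not tested.

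Leaving out cow 489215 turned 19 directions and leaving out cows 617, 79, 527, 856 and 97 turned 2, 3, 7, 6 and 4. Over the leave-outs, chaperones ranged from -0.17 to 0.13 for HSP90B1, -0.11 to 0.43 for DNAJB9, -0.32 to 0.35 for DNAJB11, -0.45 to 0.38 for DNAJC3, -0.11 to 0.40 for SDF2L1, -0.52 to 0.37 for MANF and -0.16 to 0.44 for CRELD2. Lectins and isomerases ranged from -0.46 to 0.11 for CALR, -0.32 to 0.10 for CANX, -0.48 to 0.13 for P4HB, -0.29 to 0.17 for PDIA3, -0.026 to 0.24 for PDIA5, -0.074 to 0.41 for PDIA6 and -0.054 to 0.11 for DNAJC10. Sensors and factors ranged from -0.20 to 2.03 for ERN1, -1.04 to 0.22 for ATF6, -0.11 to 0.38 for XBP1, -0.37 to 0.25 for ATF4 and -0.029 to 0.69 for DDIT3. Degradation genes ranged from -1.25 to 0.22 for SEL1L and -0.74 to 0.41 for EDEM1. Translocation genes ranged from -0.36 to 0.36 for SEC61B, -0.65 to 0.39 for SEC61G, -0.47 to 0.061 for SSR1, -0.0050 to 0.50 for SSR2, -0.39 to 0.47 for SSR4 and -0.28 to 0.0089 for SPCS3. In each of these ranges 1 end was the value without cow 489215. With 3 cows per group, a member that missed the threshold was not shown to be alike in both groups. No paired analysis was possible because the groups share no cow number.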

Other observations

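ERN2, the epithelial relative of ERN1 and no member of the list, was chosen after its values were seen and is given without a test. Its normalized counts were 2072, 1957 and 2515 in LF/LCL cows 617, 79 and 527 and 298, 884 and 897 in SF/SCL cows 856, 489215 and 97, so every SF/SCL cow, cow 489215 included, was below every LF/LCL cow. The ratio of ERN1 to ERN2 within a library was 0.131, 0.209 and 0.211 in LF/LCL, 4.96 and 1.91 in cows 856 and 97, and 0.0286 in cow 489215.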
